A study of Mus musculus with 35 samples.

Results

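Mouse lin- HSPCs that carried G-NHA9-8FA were compared with cells that carried the empty vector, across all genes of the deposited read counts. G-NHA9-8FA (written G-NHX9-8FA in the labels) is the mEGFP-tagged fusion of NUP98 and HOXA9 in which phenylalanines of FG motifs in the C-terminal part of the NUP98 segment were changed to alanine. The comparison took 5 libraries of each group, 10 of the 35 libraries of the series, and 17166 of the 49671 genes in the counts passed the filter on low counts. Lin- HSPCs are hematopoietic stem and progenitor cells isolated from bone marrow by removing cells with markers of mature blood lineages. Donors of both groups were C57Bl/6 mice of both sexes. The labels give an age of 8 weeks for all G-NHA9-8FA libraries and for empty vector libraries 1, 2 and 3, against 9 and 10 weeks for empty vector libraries 4 and 5. Cells of both groups were transduced with lentivirus, kept in SCF, Flt3 ligand, IL6, IL3 and IL7, sorted, and grown for 1 week in methylcellulose with added GM-CSF before RNA was extracted. Empty vector cells were sorted for mCherry alone and G-NHA9-8FA cells for mCherry together with mEGFP, so that a difference due to the sort and a difference due to the fusion cannot be told apart. G-NHA9, the same fusion with its FG motifs intact, is used as another reference (5 libraries, 1 of them from mice of 11 weeks and the others of 8 weeks).

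NUP98 is a nuclear pore protein whose N-terminal part is disordered and rich in phenylalanine-glycine (FG) repeats. In leukemia, translocations join this part to the DNA-binding homeodomain of HOXA9, and the fusion proteins gather in nuclear puncta. HOX proteins are homeodomain transcription factors that act with TALE homeodomain partners of the MEIS and PBX families. In blood formation, the Hoxa and Hoxb genes are most active in stem and early progenitor cells and are shut down as cells mature. The methylcellulose medium supports granulocytes, macrophages, mast cells, megakaryocytes and red cells, so that colonies hold several lineages.

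Total counts were between 31559914 and 58576267 per library. A count of 0 allows up to 3 counts, which is 0.0549 to 0.0996 CPM (counts scaled to a library of 1000000 counts) depending on the library and covers counting error only. CPM are scaled by edgeR's TMM factors throughout. Correlations of log2 CPM between libraries were 0.9802 to 0.9925 within G-NHA9-8FA, 0.978 to 0.9917 within the empty vector and 0.9557 to 0.9747 between the groups. Xist and the 4 Y-linked genes examined were present in every library, as in a pool of both sexes. None of the 6 sex-linked transcripts tested passed the threshold in edgeR, 0 had an unadjusted p under 0.05, and DESeq2 called 0. A gene was called at an adjusted p under 0.05 in edgeR (quasi-likelihood test, Benjamini-Hochberg adjustment over all genes tested). Differences between groups are log2 fold changes, G-NHA9-8FA minus empty vector, given as value ± SE, and levels of a group are given as mean CPM ± SD over its 5 libraries. Where levels are listed, they stand in the order of libraries 1 to 5. The study's methods describe parallel cell isolations and triplicate transductions with each virus. The labels instead give 5 libraries in each group and do not say which of them share mice, a transduction or a culture, so the p-values measure the spread between these libraries, which may in part be technical.

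The genes that the construct itself holds were examined first. Nup98 was at 121, 122, 119, 142 and 144 CPM in empty vector libraries 1 to 5 and at 159, 147, 148, 146 and 198 CPM in G-NHA9-8FA libraries 1 to 5. Every G-NHA9-8FA library was above every empty vector library, although the difference of 0.30 ± 0.12 (SE) did not pass the threshold (adjusted p = 0.058). It did with a score of sex-linked transcripts in the fit (0.33). Hoxa9 (ENSMUSG00000038227.15, chr6:52223100-52231089, minus strand, GRCm38) was at 1.08, 1.26, 0.693, 0.83 and 1.01 CPM in the empty vector libraries. In the G-NHA9-8FA libraries it was at 30.1, 32.7, 36.1, 28.5 and 41.5 CPM, a rise of 5.10 ± 0.39 (adjusted p = 1.7e-11). The lowest G-NHA9-8FA library was far above the highest empty vector library. Counts per gene do not tell reads of the construct from reads of the mouse Nup98 and Hoxa9 genes.

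Of the genes tested, 4564 (26.6%) differed between the groups. Of these, 2298 (13.4%) were higher and 2266 (13.2%) were lower in G-NHA9-8FA cells, and the median difference over all genes tested was 0.03. A difference of at least 1 on the log2 scale was met by 699 of the higher and 944 of the lower genes. Without the empty vector libraries 4 and 5, from older mice, 3305 genes differed, 1493 of them higher. The groups did not overlap for 17.1% of all genes tested. The genes that rose most among those with no overlap and a mean of at least 5 CPM were Csn2, Hoxa9, Hoxa7, Mefv, Chil4 and Myl10, in this order. Among those that fell most were Aqp1, Slc4a1, Alas2, Hba-a2 and Tubb1, of which the first 4 are genes of red cells and the last is the tubulin of platelets.

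**Figure D1:**
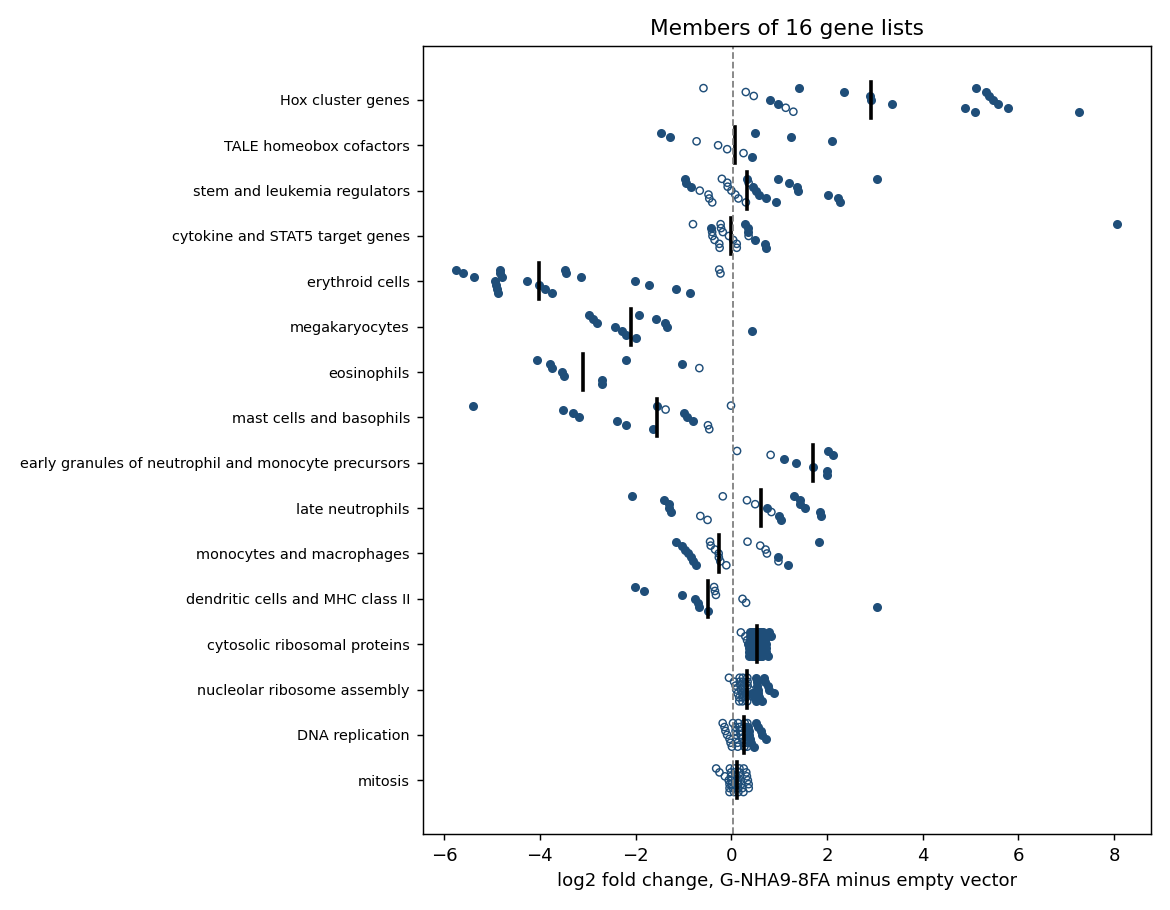
Log2 difference in expression between G-NHA9-8FA and empty vector cells for the tested members of 16 gene lists. Each point is a gene, filled where it passed the threshold and open where it did not, the black bar is the median of the list, and the dashed line is the median of all genes tested (0.03). The Hox list lies mostly to the right, the erythroid and eosinophil lists lie to the left, and the ribosomal protein genes form a narrow band right of the dashed line.

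Hox cluster genes were raised as a group. Of 39 in the counts, 21 passed the filter, 16 of these were higher in G-NHA9-8FA cells and none was lower, with a median difference of 2.93. Summed over the list, expression was 6.98, 9.41, 8.32, 9.43 and 9.61 CPM in the empty vector libraries and 81.5, 90.4, 91.7, 75.5 and 112 CPM in the G-NHA9-8FA libraries. These sums did not overlap. No Hoxd gene passed the filter.

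In the Hoxa cluster, every gene tested from Hoxa2 to Hoxa10 rose. Hoxa7 (ENSMUSG00000038236.8, chr6:52214491-52221854, minus strand) was at 0.408, 1.24, 0.37, 0.365 and 0.52 CPM in the empty vector and at 20.5, 17.3, 16.8, 14.1 and 18.9 CPM with G-NHA9-8FA, a difference of 4.88 ± 0.41 (adjusted p = 1.4e-10). Hoxa5 was at 0.192, 0.0918, 0.139, 0.266 and 0.214 CPM and at 6.06, 5.93, 7.38, 6.03 and 10.3 CPM, and rose by 5.33 ± 0.33 (adjusted p = 1.2e-13). Hoxa3 was at 0.096, 0.207, 0.0924, 0.299 and 0.153 CPM and at 2.66, 5.47, 5.41, 5.88 and 9.63 CPM, and rose by 5.12 ± 0.44 (adjusted p = 1.5e-10). In all of these genes the groups were well apart, with the highest Hoxa3 value in G-NHA9-8FA library 5. Hoxa2 rose by 5.59 ± 0.54 (adjusted p = 1.3e-09) and Hoxa6 by 5.47 ± 0.50 (adjusted p = 3.6e-10), both from at most 0.0612 CPM in any empty vector library. Hoxa10, the neighbor of Hoxa9 on the 5′ side, was at 0.0634 ± 0.0751 CPM in the empty vector and 0.524 ± 0.121 CPM with G-NHA9-8FA (difference, 2.93 ± 0.56, adjusted p = 0.00012). Hoxa4 rose by 0.81 ± 0.27 (adjusted p = 0.023), with overlapping groups, and lost the threshold without G-NHA9-8FA library 2, 3 or 5 or empty vector library 1 or 3 (0.71 to 0.77). Hoxa11 and Hoxa13 did not pass the filter, with at most 0.103 CPM in any of the 10 libraries.

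In the Hoxc cluster, 3 neighboring genes rose. Hoxc6 was at 0, 0.0689, 0, 0.0664 and 0 CPM in the empty vector and at 2.91, 4.41, 4.18, 3.18 and 7.67 CPM with G-NHA9-8FA, and rose by 7.27 ± 0.60 (adjusted p = 5.2e-11), with G-NHA9-8FA library 5 the highest. Hoxc4 (difference, 5.78 ± 0.51, adjusted p = 1.9e-10) and Hoxc5 (5.40 ± 0.65, adjusted p = 6.1e-08) rose likewise. Because the empty vector libraries held 3 counts of Hoxc5 in all, its ratio of counts is 48.8 with a 95% counting interval of 16.4 to 239. In the annotation (GENCODE M21, GRCm38) Hoxc5 spans Hoxc6 and Hoxc8 on its own strand, and Hoxa3 spans Hoxa4, Hoxa5 and Hoxa6, so that the share of reads given to each of these genes is uncertain. Hoxc8 was at 0.0703 ± 0.0687 CPM and 0.172 ± 0.154 CPM, and did not pass the threshold (1.30 ± 0.64, adjusted p = 0.13).

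Hoxb genes differed along their cluster. Hoxb4, a gene of stem cell self-renewal, was at 2.81, 3.7, 4.37, 4.48 and 3.28 CPM in the empty vector and at 6.45, 9.66, 8.18, 4.67 and 7.91 CPM with G-NHA9-8FA, and rose by 0.99 ± 0.18 (adjusted p = 8.3e-05). Hoxb3 rose by 2.90 ± 0.23 (adjusted p = 3.4e-11), from 0.619 ± 0.308 to 4.56 ± 0.854 CPM. Hoxb5 (3.37 ± 0.69, adjusted p = 0.00023) and Hoxb2 (1.42 ± 0.46, adjusted p = 0.018) rose while staying at or under 0.488 CPM in every library. Hoxb2 lost the threshold without G-NHA9-8FA library 1 (1.12) or empty vector library 1 (1.26). Hoxb6 passed the threshold (2.35 ± 0.91, adjusted p = 0.037), but its groups overlapped and library 1 of G-NHA9-8FA held no count. It lost the threshold without G-NHA9-8FA library 2, 3 or 5 or empty vector library 1, 3 or 4 (1.96 to 2.35). The 5′ genes Hoxb7, Hoxb8 and Hoxb9 were at most 0.154 CPM in any library of the comparison and did not pass the threshold.

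**Figure D2:**
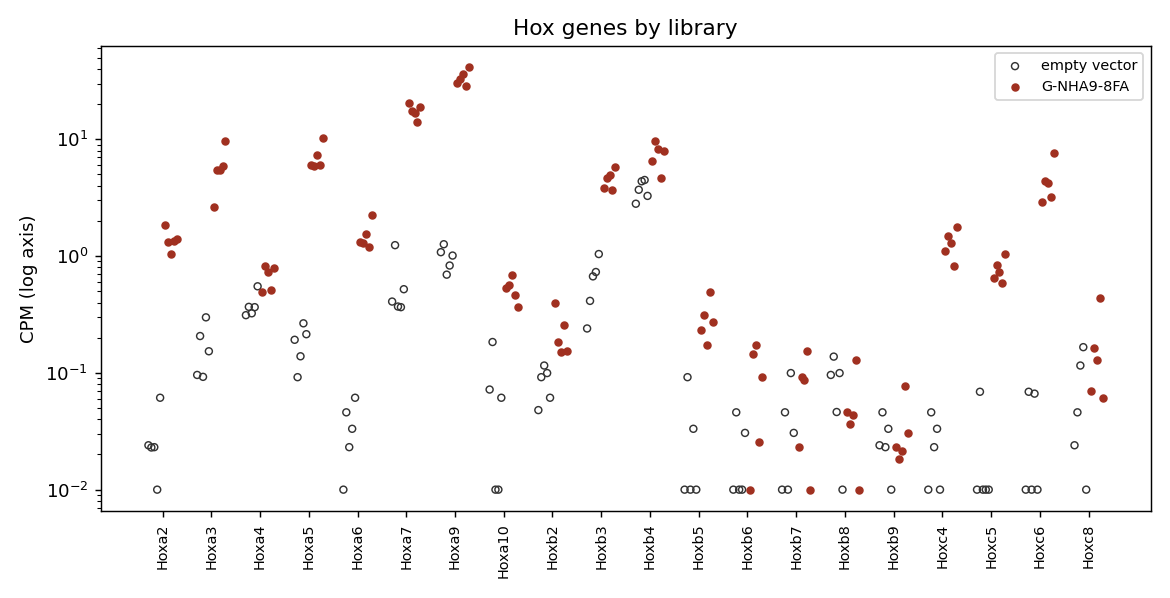
Expression of 20 tested Hox genes in each of the 10 libraries, in CPM on a log axis, with empty vector libraries as open circles and G-NHA9-8FA libraries as filled circles. Libraries with no count are drawn at the lower edge, at 0.01. The groups lie apart for Hoxa2 to Hoxa10 other than Hoxa4, for Hoxb2 to Hoxb5 and for Hoxc4 to Hoxc6, and overlap for Hoxa4, Hoxb6 to Hoxb9 and Hoxc8.

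The TALE partners of HOX proteins did not follow the Hox genes as a group. Of 10 tested, 4 were higher and 2 lower, with a median of 0.086. Meis1, the partner most often found with HOXA9 in leukemia, was at 13.4, 15.3, 15.9, 14.5 and 9.3 CPM in the empty vector and at 9.04, 13, 15.5, 10.5 and 8.4 CPM with G-NHA9-8FA, and did not pass the threshold (-0.27 ± 0.18, adjusted p = 0.27). Its groups overlapped. Pbx3 rose by 0.44 ± 0.14 (adjusted p = 0.016), with overlapping groups, and lost the threshold without G-NHA9-8FA library 3 (0.38) or empty vector library 2 (0.37). Meis3 fell by 1.47 ± 0.21 (SE; adjusted p = 1.6e-06). The repressor Tgif2 rose by 2.11 ± 0.30 (adjusted p = 1.8e-06), Pbx4 by 1.26 ± 0.27 (adjusted p = 0.00066) and Pknox1 by 0.49 ± 0.11 (adjusted p = 0.00066).

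Regulators of stem cells and leukemia were more often higher than lower. Of 29 tested, 14 were higher and 3 lower, with a median of 0.33. The lower count was 5 in DESeq2 and 6 in a fit of these groups alone. Myb, a transcription factor of progenitor proliferation, was at 41, 23.3, 34.7, 32.7 and 22.8 CPM in the empty vector and at 70.8, 66.7, 85.7, 76.1 and 107 CPM with G-NHA9-8FA, a rise of 1.39 ± 0.17 (adjusted p = 2.3e-07) without overlap. Gfi1, which represses alternative fates in granulocyte precursors, was at 23, 10.8, 21.9, 23.1 and 11.4 CPM and at 60.1, 60.8, 65.1, 113 and 139 CPM, and rose by 2.28 ± 0.26 (adjusted p = 5.0e-08). In Gfi1 the G-NHA9-8FA libraries 4 and 5 were above the other 3. The progenitor antigen Cd34 was at 44.1, 38.3, 45.5, 34 and 22.6 CPM and at 85.3, 81.1, 102, 81.2 and 74.3 CPM, and rose by 1.20 ± 0.18 (adjusted p = 6.7e-06). Hlf (2.03 ± 0.27, adjusted p = 6.2e-07), Sox4 (1.36 ± 0.17, adjusted p = 2.8e-07) and Erg (0.97 ± 0.19, adjusted p = 0.00026), transcription factors of stem cells, rose with no overlap between groups. Bcat1, the branched-chain aminotransferase, rose by 2.23 ± 0.27 (adjusted p = 1.2e-07). Of the 18 markers listed for stem and progenitor cells themselves, 7 were higher and 4 lower (median, 0.34), and without empty vector library 4 the lower count was 2, as it was without the libraries from older mice. The receptor tyrosine kinase Flt3 rose by 3.05 ± 0.32 (adjusted p = 8.2e-09) but stayed at 1.54 ± 0.364 CPM. In contrast, Kit was at 87.3, 72.3, 88.2, 95.5 and 73.6 CPM and at 43.7, 63.2, 58.4, 61.7 and 76.3 CPM, and did not pass the threshold (-0.46 ± 0.25, adjusted p = 0.19), although it did in a fit of these groups alone (-0.47). Mecom (0.31 ± 0.32, adjusted p = 0.52) and Eya1 (0.085 ± 0.24, adjusted p = 0.84) did not pass it. Among the 3 that fell were the DNA methyltransferase Dnmt3a (-0.83 ± 0.10, adjusted p = 1.0e-07) and Gfi1b (-0.96 ± 0.21, adjusted p = 0.00087), a transcriptional repressor that acts within erythroid and megakaryocytic cells.

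Csn2 rose most among the genes with no overlap and a mean of at least 5 CPM. It encodes beta-casein, a milk protein whose gene is a standard target of STAT5, the transcription factor that acts downstream of IL3, GM-CSF and other cytokines. Csn2 (ENSMUSG00000063157.9, chr5:87692624-87699630, minus strand) was at 0.048, 0.0918, 0.324, 0.896 and 0.582 CPM in the empty vector libraries. With G-NHA9-8FA it was at 27.5, 105, 43.2, 118 and 190.4 CPM, a rise of 8.07 ± 1.01 (adjusted p = 2.4e-07). The G-NHA9-8FA libraries ranged widely, and the lowest of them was still far above every empty vector library. The window from 250 bases before to 50 bases after the Csn2 start (RefSeq, GRCm38.p6, chr5:87699376-87699675, minus strand) is shown because of that rise, with the motif TTCNNNGAA bound by STAT proteins in capitals. This motif reads the same on both strands.
Csn2: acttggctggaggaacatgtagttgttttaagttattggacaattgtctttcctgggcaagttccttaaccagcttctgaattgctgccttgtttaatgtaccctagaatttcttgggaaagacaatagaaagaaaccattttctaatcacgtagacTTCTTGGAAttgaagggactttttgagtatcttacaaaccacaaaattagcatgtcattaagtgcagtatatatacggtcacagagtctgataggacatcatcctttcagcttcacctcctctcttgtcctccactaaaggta
The single match begins 93 bases before the start. The motif was found in 8.3% of 32851 RefSeq windows of this length, and in 5 of the 23 windows of the listed cytokine and STAT5 target genes. A match is a description of these letters and not evidence of binding.

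Among the listed cytokine and STAT5 target genes, no tested gene other than Csn2 reached a difference of 1 on the log2 scale. Of 22 tested, 7 were higher and 1 lower, with a median of -0.0035. Cish, the STAT5-induced cytokine signaling inhibitor, was at 120.0, 148, 153, 279 and 279 CPM in the empty vector and at 79.1, 156, 112, 241 and 235 CPM with G-NHA9-8FA, and did not pass the threshold (-0.25 ± 0.30, adjusted p = 0.59). In both groups libraries 4 and 5 held the most, and without the empty vector libraries 4 and 5 the difference was 0.22. The survival gene Bcl2 rose by 0.74 ± 0.16 (adjusted p = 0.00052) and the phosphatase Dusp6 by 0.71 ± 0.16 (adjusted p = 0.00081). Bcl2l1, another survival gene, fell by 0.43 ± 0.10 (SE; adjusted p = 0.0014). Pim1, Socs2, Socs3 and Spry2 made up the rest of the higher genes, with Spry2 at 0.49. The count of higher genes was 4 without G-NHA9-8FA library 4 and 4 without empty vector library 3, and 4 without the libraries from older mice.

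Red cell genes fell as a group. Of 23 erythroid markers tested, 21 were lower and none was higher, with a median of -4.03, against a median of 0.03 over all genes. The list summed to 1046, 604, 525, 393 and 570.2 CPM in the empty vector libraries and to 156, 203, 194, 237 and 218 CPM in the G-NHA9-8FA libraries, with no overlap. In bulk RNA, fewer red cell precursors and less RNA of these genes per cell cannot be told apart. The adult beta-globin gene Hbb-bs (ENSMUSG00000052305.6, chr7:103826534-103828096, minus strand) was at 330.3, 151, 137, 104 and 182 CPM in the empty vector libraries and at 1.61, 21.9, 12.6, 12.5 and 11.9 CPM in the G-NHA9-8FA libraries (difference, -3.90 ± 0.64, adjusted p = 1.9e-05). G-NHA9-8FA library 1 was the lowest of these. The alpha-globin genes Hba-a1 (-3.75 ± 0.51, adjusted p = 1.2e-06) and Hba-a2 (-4.03 ± 0.65, adjusted p = 1.5e-05) fell likewise. Hba-a1 and Hba-a2 are near-identical copies, as in part are Hbb-bs and Hbb-bt, so the split of reads within each pair is uncertain. Hbb-bt fell less, by 1.15 ± 0.32 (SE; adjusted p = 0.0080).

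Genes of the red cell membrane and its skeleton, many of which are also among the erythroid markers, fell alongside the globins. Of 24 tested, 18 were lower and none was higher (median, -3.23). Aqp1, the water channel of red cells, was at 30.9, 18.3, 12.7, 8.37 and 7.1 CPM in the empty vector and at 0.163, 0.0732, 0.129, 0.668 and 0.489 CPM with G-NHA9-8FA (difference, -5.76 ± 0.61, adjusted p = 1.1e-08). Slc4a1, the anion exchanger band 3, was at 52, 13.2, 13.7, 12.7 and 30.1 CPM and at 0.21, 1.63, 0.582, 0.796 and 0.611 CPM (-4.95 ± 0.68, adjusted p = 1.3e-06). In both genes every G-NHA9-8FA library was below every empty vector library. Rhag (-5.62 ± 0.63, adjusted p = 2.6e-08), Epb42 (-4.84 ± 0.70, adjusted p = 2.3e-06) and Ank1 (-4.27 ± 0.51, adjusted p = 1.3e-07), for the Rh-associated glycoprotein, protein 4.2 and ankyrin, fell to at most 0.488 CPM in all G-NHA9-8FA libraries.

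Heme synthesis differed between the red cell enzyme and the others. Alas2, the erythroid form of the first enzyme of heme synthesis, was at 23.7, 6.93, 8.48, 6.94 and 14.9 CPM in the empty vector and at 0.0466, 1.01, 0.324, 0.308 and 0.336 CPM with G-NHA9-8FA (-4.84 ± 0.68, adjusted p = 1.7e-06). Alas1, the form used by other cells, was at 362 ± 60.7 CPM and 542 ± 84.2 CPM, and rose by 0.58 ± 0.13 (adjusted p = 0.0011). The later enzymes Cpox (-0.83 ± 0.19, adjusted p = 0.0012) and Fech (-0.61 ± 0.12, adjusted p = 0.00022) fell by less. Over the whole list of heme and iron genes, 6 of 24 were lower and 1 was higher. The transferrin receptor Tfrc, which proliferating cells of many types use, did not pass the threshold (-0.22 ± 0.25, adjusted p = 0.55).

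Several erythroid transcription factors fell as well. Gata1, the master regulator of red cells, megakaryocytes, eosinophils and mast cells, was at 19.9, 23.6, 21.9, 19.3 and 14.1 CPM in the empty vector and at 4.64, 6.66, 5.46, 7.29 and 5.81 CPM with G-NHA9-8FA (-1.73 ± 0.23, adjusted p = 6.0e-07). Klf1, the activator of beta-globin, was at 7.8, 9.41, 5.11, 3.09 and 3.21 CPM and at 0.14, 0.64, 0.604, 0.514 and 0.733 CPM (-3.45 ± 0.42, adjusted p = 1.8e-07). The erythropoietin receptor Epor fell by 2.00 ± 0.26 (SE; adjusted p = 6.6e-07). Of the 19 factors listed for these lineages, 6 were lower, among them Zfpm1 (-0.93 ± 0.24, adjusted p = 0.0037), Sox6 (-1.73 ± 0.36, adjusted p = 0.00042) and Gata2 (-0.89 ± 0.27, adjusted p = 0.014). Without empty vector library 4, Gata2 was at -0.73 and did not pass the threshold. Another 4 of the 19 were higher, against 13.4% of all genes, namely Myb, Nfe2 (0.44 ± 0.11, adjusted p = 0.0028), Fli1 and Lmo2. Other blood cells also express these 4, as they do some of the lower factors, such as Gata1. The lower count was 11 with a score of sex-linked transcripts in the fit, and the higher count 2 without the libraries from older mice.

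Windows of 3 red cell genes that fell are shown because GATA1 and KLF1 are known regulators of this class. The GATA motif AGATAA and the KLF1 motif CCACACCC were searched on both strands in the same RefSeq windows (GRCm38.p6) and are in capitals, where TTATCT is AGATAA on the other strand. Hbb-bs lies on the minus strand at chr7:103827879-103828178, Alas2 on the plus strand at chrX:150547167-150547466 and Epb42 on the minus strand at chr2:121036828-121037127.
Hbb-bs: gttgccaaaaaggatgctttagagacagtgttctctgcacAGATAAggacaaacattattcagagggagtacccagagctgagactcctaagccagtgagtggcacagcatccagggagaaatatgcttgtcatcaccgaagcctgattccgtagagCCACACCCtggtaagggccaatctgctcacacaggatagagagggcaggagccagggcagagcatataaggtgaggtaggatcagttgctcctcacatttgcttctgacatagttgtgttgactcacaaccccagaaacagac
Alas2: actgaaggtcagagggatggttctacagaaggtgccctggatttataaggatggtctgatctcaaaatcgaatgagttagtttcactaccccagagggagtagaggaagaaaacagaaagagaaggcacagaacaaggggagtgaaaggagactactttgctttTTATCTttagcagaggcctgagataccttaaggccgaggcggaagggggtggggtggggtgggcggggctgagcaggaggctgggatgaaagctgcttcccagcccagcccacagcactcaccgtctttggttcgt
Epb42: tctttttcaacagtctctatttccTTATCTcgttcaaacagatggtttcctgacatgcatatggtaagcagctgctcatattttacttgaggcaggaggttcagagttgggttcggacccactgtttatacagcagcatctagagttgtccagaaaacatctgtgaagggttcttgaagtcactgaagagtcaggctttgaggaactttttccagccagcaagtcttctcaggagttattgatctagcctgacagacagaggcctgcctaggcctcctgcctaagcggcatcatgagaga
Hbb-bs held both motifs, with AGATAA beginning 210 and CCACACCC 93 bases before the start, while Alas2 and Epb42 each held 1 match to AGATAA. Of the 18 windows of the erythroid markers (17 genes matched), 7 held AGATAA and 1 held CCACACCC. Over all RefSeq windows the shares were 11.2% and 3.56%. All 3 windows shown hold a match, unlike most of the 18. The motifs do not overlap each other in the windows shown. A match is a description of these letters and not evidence of binding. Whether these motifs have a part in the lower levels was not tested.

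**Figure D3:**
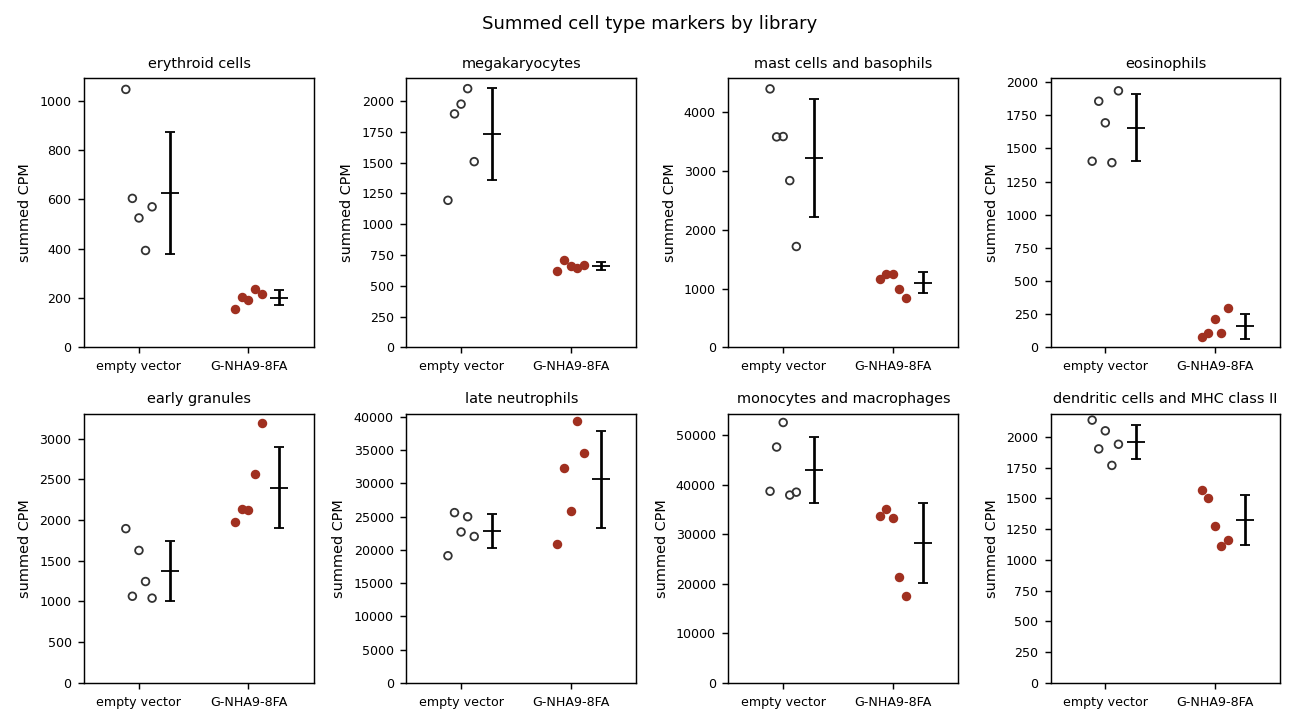
Summed expression of 8 lists of cell type markers in each library, in CPM on a linear axis from 0 with its own scale in each panel, with a horizontal bar at the mean of the 5 libraries and the error bar showing 1 SD. Erythroid, megakaryocyte, mast cell and basophil, eosinophil, monocyte and macrophage, and MHC class II sums are lower in all 5 G-NHA9-8FA libraries than in any empty vector library. Most of the fall in the monocyte and macrophage sum is in Lyz2. Sums of the early granule list, which also holds other precursor markers, are higher in all 5, and late neutrophil sums overlap.

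Megakaryocyte and platelet genes also fell. Of 12 markers, 11 were lower and 1 (Nfe2, above) was higher, with a median of -2.10 and sums of 1194, 1895, 1974, 2100.2 and 1508 CPM in the empty vector and 624, 707, 664, 646 and 666 CPM with G-NHA9-8FA. Pf4, a platelet chemokine, was at 200.03, 393, 415, 415 and 273 CPM and at 42.2, 95.2, 78.1, 133 and 95.6 CPM (-1.93 ± 0.37, adjusted p = 0.00014). Gp9, a chain of the von Willebrand factor receptor, fell by 2.96 ± 0.43 (SE; adjusted p = 2.5e-06) and the integrin Itga2b by 1.57 ± 0.22 (SE; adjusted p = 2.0e-06). Tubb1, the platelet beta-tubulin, which was not on the list, was at 7.41, 7.48, 14.6, 11.1 and 8.94 CPM and at 0.28, 0.951, 0.561, 0.719 and 0.581 CPM (-3.98 ± 0.48, adjusted p = 1.5e-07).

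Eosinophil granule genes fell too. Of 10 markers, 9 were lower, with a median of -3.10, and the list summed to 1404, 1856, 1693, 1393 and 1935 CPM in the empty vector and 78, 106, 214, 106 and 300.1 CPM with G-NHA9-8FA. Prg2, the major basic protein, was at 759, 1118, 933, 677 and 952 CPM and at 34, 46.2, 107, 46.5 and 163 CPM (-3.49 ± 0.43, adjusted p = 1.8e-07). Epx, eosinophil peroxidase, was at 346, 322, 439.7, 445 and 598 CPM and at 7.67, 22, 47.6, 14.8 and 68.7 CPM (-3.74 ± 0.47, adjusted p = 2.4e-07). In both genes the G-NHA9-8FA libraries 3 and 5 held more than libraries 1, 2 and 4, and none reached the empty vector. Prg3 (-3.79 ± 0.42, adjusted p = 2.5e-08) and Ear1 (-3.54 ± 0.63, adjusted p = 7.2e-05) fell as far, although the Ear genes are similar copies and their split is uncertain. Il5ra, the receptor for the eosinophil cytokine IL5, fell by 4.07 ± 0.47 (SE; adjusted p = 5.7e-08) to 0.0734 ± 0.0726 CPM. The remaining marker Ccr3, at 0.748 ± 0.316 CPM in the empty vector, did not pass the threshold (-0.67 ± 0.32, adjusted p = 0.13).

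Mast cell and basophil genes fell unevenly. Of 15 markers, 11 were lower and none was higher (median, -1.55), with sums of 4398, 3581, 3587, 2838 and 1717 CPM and 1161, 1247, 1252, 994 and 841 CPM. The mast cell tryptase Tpsb2 was at 366, 409.6, 486, 362 and 182 CPM in the empty vector and at 35.6, 50.03, 41, 17.9 and 11.9 CPM with G-NHA9-8FA (-3.53 ± 0.39, adjusted p = 2.3e-08), and the chymase Cma1 at 559, 485, 452, 327 and 169 CPM and at 38.3, 32.4, 58.3, 41.1 and 48 CPM (-3.19 ± 0.35, adjusted p = 1.9e-08). Tryptase and chymase genes have similar copies nearby. Cpa3, the mast cell carboxypeptidase, was at 1689.8, 1171, 1099, 747 and 476 CPM and at 388, 339, 417, 284 and 239 CPM (-1.64 ± 0.25, adjusted p = 6.6e-06), and empty vector library 5 had the lowest level of its group in all of these genes. The alpha chain of the IgE receptor, Fcer1a, fell by 2.38 ± 0.27 (SE; adjusted p = 3.7e-08).

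Markers of granulocyte and monocyte precursors, among them genes of the primary granules that these cells make, were mostly higher. Of 9 listed, 7 were higher and none was lower (median, 1.72). Elane, neutrophil elastase, was at 92.6, 11, 77.7, 98.9 and 54.7 CPM in the empty vector and at 119.8, 153, 171, 379 and 517 CPM with G-NHA9-8FA (2.00 ± 0.44, adjusted p = 0.00076). Cathepsin G (Ctsg) was at 116, 54.1, 78.6, 81.2 and 38.9 CPM and at 205, 183, 199, 407 and 504 CPM (2.02 ± 0.29, adjusted p = 3.0e-06), and proteinase 3 (Prtn3) rose by 2.01 ± 0.39 (adjusted p = 0.00018). In these genes the groups did not overlap, empty vector library 2 was lowest for Elane and Prtn3, and G-NHA9-8FA libraries 4 and 5 were highest. Mpo, myeloperoxidase, was at 217, 32.8, 164, 215 and 61.9 CPM and at 172, 134, 183, 293 and 441 CPM, with overlapping groups, and did not pass the threshold (0.82 ± 0.37, adjusted p = 0.10). Cebpe, a transcription factor of granule genes, rose by 1.11 ± 0.21 (adjusted p = 0.00018).

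Late neutrophil genes moved in both directions. Of 20 listed, 9 were higher and 5 lower (median, 0.62). S100a9, a subunit of calprotectin, was at 4725, 3042, 3935, 4199.6 and 4166 CPM in the empty vector and at 6107, 12054, 8549, 14438 and 13181 CPM with G-NHA9-8FA (1.44 ± 0.25, adjusted p = 4.2e-05). Its partner S100a8 rose by 1.45 ± 0.26 (adjusted p = 7.7e-05), and the granule protein Ngp by 1.31 ± 0.29 (adjusted p = 0.00097). Ly6g, the Gr-1 antigen of neutrophils, was at 21.1, 21.6, 24.3, 27.2 and 33.9 CPM and at 52.2, 132, 75.4, 111 and 99.5 CPM (1.88 ± 0.33, adjusted p = 4.8e-05), and the receptor for G-CSF, Csf3r, rose by 1.03 ± 0.23 (adjusted p = 0.00079). The lower genes were the formyl peptide receptors Fpr1 (-2.08 ± 0.27, adjusted p = 4.6e-07) and Fpr2 (-1.30 ± 0.27, adjusted p = 0.00047), the chitinase-like Chil3 (-1.40 ± 0.30, adjusted p = 0.00062) and the stefins Stfa1 (-1.30 ± 0.30, adjusted p = 0.0011) and BC100530 (-1.26 ± 0.28, adjusted p = 0.0010). Chil3 was at 5289, 16022, 10454, 11873 and 8454 CPM and at 5059, 2804, 4568, 4505 and 2781 CPM, so that empty vector library 1 was close to the highest G-NHA9-8FA library. Its relative Chil4 moved the other way, from 3.13 ± 1.29 to 79.9 ± 33.9 CPM (4.68 ± 0.41, adjusted p = 2.7e-10), and reads of these similar genes may be split between them.

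Monocyte and macrophage genes were called in both directions. Of 22 tested, 3 were higher and 7 lower (median, -0.26), against 13.4% higher and 13.2% lower of all genes. The list summed to 38667, 47590.4, 52542, 37896 and 38482 CPM in the empty vector and to 33590.0, 35120.4, 33303, 21424 and 17577 CPM with G-NHA9-8FA, with no overlap. Most of the fall in this sum was in Lyz2 (below), so the lack of overlap says little about the other members. Ly6c2, the antigen of inflammatory monocytes and their precursors, was at 307, 250.6, 326, 311 and 314 CPM in the empty vector and at 875, 1039.9, 865, 1479 and 1113 CPM with G-NHA9-8FA (1.83 ± 0.16, adjusted p = 2.5e-10), although reads of its close relative Ly6c1 may be split with it. The monocyte chemokine receptor Ccr2 rose by 0.97 ± 0.23 (adjusted p = 0.0015) and Cd14 by 1.20 ± 0.29 (adjusted p = 0.0023). Lysozyme (Lyz2) was at 25449, 32327, 35477, 25650.0 and 26536 CPM and at 16036, 20219.8, 17845, 11707 and 8643 CPM (-0.97 ± 0.24, adjusted p = 0.0024), the largest loss in CPM of any gene called. The efferocytosis receptor Mertk (-1.04 ± 0.19, adjusted p = 0.00010) and cathepsin S (Ctss; -0.79 ± 0.21, adjusted p = 0.0039) also fell. Csf1r, the M-CSF receptor, did not pass the threshold (-0.26 ± 0.16, adjusted p = 0.24).

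Of 13 genes of dendritic cells and antigen presentation, 7 were lower and 1, Flt3, was higher. The class II chain H2-Aa was at 369.7, 328, 350.3, 315 and 321 CPM in the empty vector and at 230.4, 223, 194, 210.5 and 192 CPM with G-NHA9-8FA (-0.68 ± 0.15, adjusted p = 0.0011), and its transactivator Ciita fell by 1.02 ± 0.20 (SE; adjusted p = 0.00027). Batf3, a transcription factor of cross-presenting dendritic cells, fell by 2.02 ± 0.21 (SE; adjusted p = 6.7e-09). Lymphoid markers were mostly under the filter, with 6 of 19 tested. The 1 that was called, the IL7 receptor Il7r (-0.94 ± 0.24, adjusted p = 0.0030), was at 331 ± 46.1 CPM in the empty vector, while the defining B and T cell genes Pax5, Cd3e and Cd8a did not pass the filter.

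Receptors for cytokines of the medium and related receptors were lower in 8 of 16 cases and higher in 2. Over all genes, 13.2% were lower and 13.4% higher, so that the higher count is near the share of all genes. The shared beta chain of the IL3 and GM-CSF receptors, Csf2rb, was at 1297, 1268, 1200.1, 1718 and 1706 CPM in the empty vector and at 1286, 1189, 995, 1218 and 1116 CPM with G-NHA9-8FA, and did not pass the threshold (-0.31 ± 0.17, adjusted p = 0.18). The IL3 receptor alpha chain Il3ra did not either (-0.26 ± 0.13, adjusted p = 0.13). The lower genes included Epor, Il5ra and Il1rl1, receptors of the lineages described above. The TGF-beta receptor Tgfbr2 fell by 1.15 ± 0.12 (SE; adjusted p = 7.1e-09), from 204 ± 20.5 to 91.8 ± 11.2 CPM.

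Genes of protein synthesis rose by small amounts. Of 79 cytosolic ribosomal protein genes, 76 were higher and none was lower, with a median of 0.54. No difference among them reached 1 on the log2 scale. Their summed expression was 45849.7, 55292, 48137, 41229 and 34209 CPM in the empty vector libraries and 66788, 60944, 58465, 76604 and 64085 CPM in the G-NHA9-8FA libraries, again with no overlap. Rps23 rose most, from 529 ± 108 to 941 ± 129 CPM (0.83 ± 0.13, adjusted p = 1.3e-05). The 3 that did not pass the threshold were Rpl41, Rplp1 and Rps16. Empty vector libraries 4 and 5, from older mice, had the lowest sums of all, and without them 43 of the genes were higher, with a median of 0.38. The part that age has in this difference cannot be told apart from other features of these libraries. Many of these genes have processed pseudogenes that can take some of their reads.

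In ribosome biogenesis, 16 of 40 genes of ribosome assembly in the nucleolus were higher and none was lower (median, 0.32). The pseudouridine synthase Dkc1 was at 23.7, 15.8, 16.3, 13 and 14.2 CPM in the empty vector and at 34.4, 24.5, 31.9, 30.1 and 33.1 CPM with G-NHA9-8FA (0.89 ± 0.19, adjusted p = 0.00072), and its partner Nop10 rose by 0.70 ± 0.10 (adjusted p = 2.4e-06). Translation factors were higher in 11 of 40 cases and lower in none, against 13.4% higher and 13.2% lower of all genes. The elongation factor Eef1a1 was at 7365 ± 1357 CPM and 9676 ± 884 CPM (0.39 ± 0.11, adjusted p = 0.0096). Genes of the amino acid response and of serine and one-carbon metabolism were higher in 13 of 35 and lower in none. Among them were the serine hydroxymethyltransferases Shmt1 (1.26 ± 0.19, adjusted p = 4.5e-06) and Shmt2 (0.85 ± 0.18, adjusted p = 0.00040), phosphoserine phosphatase (Psph; 0.96 ± 0.18, adjusted p = 9.5e-05) and the cystine transporter Slc7a11 (0.97 ± 0.25, adjusted p = 0.0033). Without the libraries from older mice the counts of higher genes were 7 for ribosome assembly and 3 for translation factors, and that of ribosome assembly was 10 without empty vector library 4 and 9 without library 5. Eef1a1 lost the threshold without empty vector library 5 (0.29).

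Proliferation genes were called in part. Of 40 DNA replication genes, 11 were higher and none was lower (median, 0.27), against 13.4% higher and 13.2% lower of all genes. Among the higher genes was Cdc45, a part of the replicative helicase (0.72 ± 0.17, adjusted p = 0.0013). The count of 11 was 5 without G-NHA9-8FA library 4 and 3 without library 5. It was 5 without empty vector library 2, 4 without library 4 and 6 without library 5, and 3 without the libraries from older mice. None of 34 mitotic genes was called in either direction by edgeR (median, 0.13), where 2 had an unadjusted p under 0.05 and DESeq2 called 0. Of 19 cyclins, CDKs and inhibitors of G1, 3 were higher and 2 lower, near the 13.4% and 13.2% of all genes. Among these members the kinase Cdk4 rose by 0.34 ± 0.091 (adjusted p = 0.0050), and the CDK4 and CDK6 inhibitor Cdkn2c fell by 0.72 ± 0.14 (SE, adjusted p = 0.00020). The higher count was 1 without G-NHA9-8FA library 2, 1 without library 4 and 0 without the libraries from older mice, where Cdk4 was at 0.24. Among 28 genes of the BCL2 family and of p53, 4 were higher and 4 lower, including the death receptor Fas (0.99 ± 0.15, adjusted p = 9.8e-06) and the death promoter Bcl2l11 (-0.73 ± 0.14, adjusted p = 0.00014). These shares are near the 13.4% and 13.2% of all genes that were higher and lower, and without the libraries from older mice the higher count was 2.

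Inflammatory genes were called in both directions (median, -0.011), against 13.4% higher and 13.2% lower of all genes. The chemokine Cxcl3, a neutrophil attractant that was not on the list, was at 15.3, 11.3, 7.81, 12.2 and 7.53 CPM in the empty vector and at 94.5, 133, 73.3, 202 and 54 CPM with G-NHA9-8FA (3.36 ± 0.45, adjusted p = 9.3e-07), while arginase (Arg1) was at 328, 485, 435, 382 and 286 CPM and at 89.6, 71.3, 107, 168 and 85.8 CPM (-1.88 ± 0.24, adjusted p = 3.5e-07). Of 30 listed, 5 were higher, among them Tnf (1.17 ± 0.18, adjusted p = 9.6e-06) and Ccl4 (1.72 ± 0.26, adjusted p = 5.4e-06), and 6 lower, among them Tgfbi (-1.13 ± 0.17, adjusted p = 7.0e-06). Without empty vector library 1, 9 were higher. Interferon-stimulated genes were lower in 4 of 25 cases (median, -0.55), such as Oas2 (-1.86 ± 0.50, adjusted p = 0.0049), and the groups overlapped for each of these. This share is near the 13.2% of all genes that were lower. Without the libraries from older mice 2 were lower, and Oas2 (-1.32) did not pass the threshold.

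Integrins and other adhesion genes were lower in 15 of 26 cases and higher in 3, against 13.2% lower and 13.4% higher of all genes. The higher count is thus near the share of all genes. The hyaluronan receptor Cd44 was at 503, 613, 443, 693 and 778 CPM in the empty vector and at 376, 288, 296, 407 and 379 CPM with G-NHA9-8FA (-0.79 ± 0.17, adjusted p = 0.00077), and the integrin Itgae fell by 2.20 ± 0.23 (SE; adjusted p = 1.3e-08). Vcam1, at 10.7 ± 3.58 CPM and 34.9 ± 6.04 CPM, rose by 1.71 ± 0.37 (adjusted p = 0.00067). Itgad rose by 3.99 ± 0.57 (adjusted p = 1.5e-06) but stayed at 0.624 ± 0.175 CPM. Of 25 NADPH oxidase and lysosome genes tested, 3 were higher, among them the oxidase subunits Ncf1 (0.56 ± 0.10, adjusted p = 6.1e-05) and Ncf4 (0.65 ± 0.11, adjusted p = 5.9e-05). This share is near the 13.4% of all genes that were higher. Another 7 were lower, against 13.2% of all genes, among them cathepsin B (Ctsb; -0.61 ± 0.18, adjusted p = 0.010) and prosaposin (Psap; -0.60 ± 0.21, adjusted p = 0.035). That lower count was 4 without G-NHA9-8FA library 4, 3 without library 5, 4 without empty vector library 2 or 3, and 11 without the libraries from older mice. Psap lost the threshold in each of these 4 single omissions (-0.57 to -0.49).

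Several other lists had few members called, against the 26.6% of all genes called. Oxidative phosphorylation subunits had 1 higher and 1 lower of 37. Sterol and fatty acid synthesis had 2 higher and 1 lower of 24. Glycolysis had 2 higher and 2 lower of 22. Nucleoporins and export factors had 4 higher and 0 lower of 28, and 2 higher without the libraries from older mice. Genes of mitochondrial DNA had 2 higher and 0 lower of 15. Chromatin regulators named with NUP98 fusions had 2 higher and 0 lower of 24. Myeloid transcription factors had more called, with 4 higher and 4 lower of 20. Of 27 genes that the study marked for this experiment, 19 were higher and 8 lower. The study chose that list on these samples, so its count is not independent evidence of a direction.

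Other genes among those that rose most belonged to none of the lists of pathways or cell types. Mefv, which encodes the inflammasome protein pyrin, was at 0.936, 0.712, 0.901, 1.53 and 0.796 CPM in the empty vector and at 18.7, 27.9, 25.5, 28 and 30.8 CPM with G-NHA9-8FA (4.76 ± 0.29, adjusted p = 1.2e-13). Myl10, a myosin light chain, was at 11.8, 4.09, 12.5, 11.7 and 6.18 CPM and at 127, 174, 154, 227 and 284 CPM (4.38 ± 0.30, adjusted p = 1.6e-12). Pfn2, an actin-binding profilin, was at 1.2, 1.03, 1.09, 1.03 and 0.826 CPM and at 12.3, 13.9, 13.9, 14.5 and 12.7 CPM (3.69 ± 0.15, adjusted p = 2.9e-18), with little spread in either group. The transporter gene Abcg3 (3.66 ± 0.33, adjusted p = 4.4e-10), Bpifc (3.53 ± 0.30, adjusted p = 2.1e-10), the ATP-gated channel P2rx3 (3.04 ± 0.66, adjusted p = 0.00070), the small GTPase Rhoj (2.88 ± 0.30, adjusted p = 8.2e-09), the interleukin-12 subunit Il12a (2.75 ± 0.27, adjusted p = 3.0e-09), Plppr3 (2.72 ± 0.32, adjusted p = 7.7e-08) and the lectin-like Clec2i (2.67 ± 0.23, adjusted p = 1.4e-10) completed the 15, together with genes described above. Clec2i has similar copies, so that its share of reads is uncertain. In the annotation Plppr3 overlaps Prtn3, which also rose, and Ptbp1, and P2rx3 overlaps Ssrp1, all on the opposite strand. Whether reads were counted by strand is not given, so Plppr3 and P2rx3 may hold reads of these genes. The same limit applies to other named genes that overlap a gene on the opposite strand. Examples are Psph (Cct6a), Shmt1 (Smcr8), Shmt2 (Ndufa4l2), Cdk4 (Tspan31), Cdc45 (Ufd1) and Dkc1 (Mpp1). Further ones are Ctsb (Fdft1), Itgae (Haspin), Itgad (Cox6a2) and Ncf1 (Gtf2ird2). G-NHA9-8FA library 5 stood above the other 4 for Abcg3, at 19.5 CPM.

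Among the 15 that fell most, Ace and Tubb1 (above) were in none of the lists. Ace, the angiotensin-converting enzyme, was at 20.4, 12.7, 19.5, 23.2 and 46.2 CPM in the empty vector and at 1.47, 2.27, 1.36, 1.75 and 3.58 CPM with G-NHA9-8FA (-3.56 ± 0.37, adjusted p = 9.6e-09). The largest losses in CPM were Lyz2, Chil3, Psap, the ferritin heavy chain Fth1, Ctss, lipoprotein lipase (Lpl; -1.52 ± 0.24, adjusted p = 1.4e-05), Ahnak (-0.95 ± 0.18, adjusted p = 0.00017), Ctsb, the metallothionein Mt1 (-1.83 ± 0.18, adjusted p = 4.2e-09) and vimentin (Vim; -0.64 ± 0.18, adjusted p = 0.0079). Fth1 differed by -0.55 ± 0.18 (adjusted p = 0.019) and lost the threshold without G-NHA9-8FA library 5 (-0.48) or empty vector library 5 (-0.43). The largest gains were S100a9, S100a8, Rn7s2, Eef1a1, Ngp, Ly6c2 and the ribosomal protein genes Rpsa, Rpl4, Rps3 and Rps24. Rn7s2, a copy of the RNA of the signal recognition particle, was at 936, 3109.6, 1476, 1918 and 1232 CPM and at 9838, 2034, 2598, 4145 and 4464 CPM (1.41 ± 0.43, adjusted p = 0.014). Its groups overlapped, without G-NHA9-8FA library 1 the difference was 0.93 and did not pass the threshold, and its near-identical copies make its level uncertain.

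**Figure D4:**
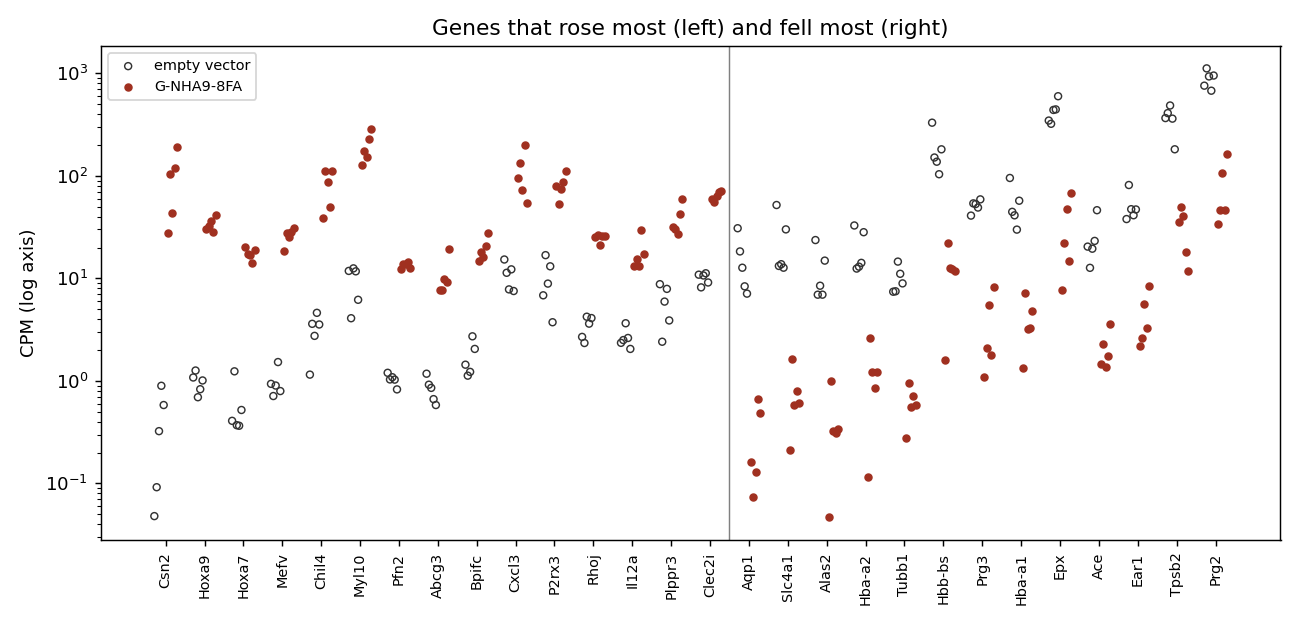
Expression in each library of the 15 genes that rose most and 13 of the 15 that fell most among called genes with no overlap between groups and a mean of at least 5 CPM, in CPM on a log axis. Open circles are the 5 empty vector libraries and filled circles the 5 G-NHA9-8FA libraries. Csn2 shows the widest separation and the widest spread, and Pfn2 is tight in both groups.

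Compared with intact G-NHA9, 2484 genes (14.5%) differed in G-NHA9-8FA cells, 1104 (6.43%) higher and 1380 (8.04%) lower. The count was 1542 without G-NHA9 library 5. Without TMM, 19.97% of the called genes were higher, against 44.4% with it, with the median of all genes at -0.12 against 0.011 with TMM. This comparison uses the same 5 G-NHA9-8FA libraries, so it is set beside the other one without a test of likeness. Hox genes took several positions. Hoxa7 was at 18.8 ± 2.21 CPM in G-NHA9 cells and 17.5 ± 2.38 CPM in G-NHA9-8FA cells, a difference of -0.10 ± 0.33 (adjusted p = 0.88), and Hoxa2 (-0.077 ± 0.33, adjusted p = 0.91) and Hoxa3 (-0.67 ± 0.32, adjusted p = 0.16) likewise did not pass the threshold. Hoxa9 was at 96.6 ± 14.4 CPM in G-NHA9 cells and lower in G-NHA9-8FA cells (-1.52 ± 0.31, adjusted p = 0.0010), as was Hoxa10 (-3.00 ± 0.40, adjusted p = 2.3e-06). Hoxc4, Hoxc5 and Hoxc6 lay between the empty vector and G-NHA9, with Hoxc6 at 19.6 ± 5.35 CPM in G-NHA9 cells (-2.14 ± 0.34, adjusted p = 4.5e-05). Hoxb6 (-5.76 ± 0.47, adjusted p = 4.2e-10), Hoxb7 (-5.02 ± 0.53, adjusted p = 3.3e-08), Hoxb8 (-6.08 ± 0.48, adjusted p = 1.4e-10) and Hoxc8 (-4.48 ± 0.47, adjusted p = 2.9e-08) were far below G-NHA9. In all, 12 of 21 Hox genes were lower and none was higher.

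TALE partners differed from G-NHA9 cells in both directions, and stem cell genes were in part lower. Of 10 partners tested, 2 were lower (Pbx3 and Meis1) and 2 were higher. Of 29 stem and leukemia regulators, 13 were lower and none was higher. Over all genes, 8.04% were lower and 6.43% higher. Pbx3 was at 63.2 ± 7.82 CPM in G-NHA9 cells and 8.73 ± 1.03 CPM with G-NHA9-8FA (-2.86 ± 0.14, adjusted p = 2.1e-15), Meis1 at 36.3 ± 2.48 CPM and 11.3 ± 2.94 CPM (-1.68 ± 0.18, adjusted p = 5.1e-08), and Eya1 at 32.2 ± 7.38 CPM and 2.66 ± 0.759 CPM (-3.59 ± 0.25, adjusted p = 1.2e-11). Cd34 (-1.37 ± 0.18, adjusted p = 2.3e-06) and Flt3 (-2.56 ± 0.26, adjusted p = 1.7e-08) were also lower than in G-NHA9 cells. Gfi1 (0.44 ± 0.25, adjusted p = 0.25), Bcat1 (-0.29 ± 0.25, adjusted p = 0.48) and Erg (-0.15 ± 0.19, adjusted p = 0.65) did not pass the threshold against G-NHA9.

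Lineage genes gave another order. The erythroid list summed to 665 ± 223 CPM in G-NHA9 cells, against 628 ± 247 CPM in the empty vector, and 23 of 23 markers were lower in G-NHA9-8FA cells than in G-NHA9 cells (median, -4.11). Hbb-bs was at 145 ± 45.6 CPM in G-NHA9 cells and lower with G-NHA9-8FA (-3.58 ± 0.63, adjusted p = 0.00014). Eosinophil markers summed to 722 ± 329.9 CPM in G-NHA9 cells, and 9 of 10 were lower with G-NHA9-8FA. Mast cell and basophil markers summed to 1081 ± 113 CPM in G-NHA9 cells, and 0 were lower and 1 higher. Among late neutrophil genes, 12 of 20 were higher and 2 lower than in G-NHA9 cells, with S100a9 at 4207 ± 767 CPM in G-NHA9 cells (1.37 ± 0.25, adjusted p = 0.00021). Beside these list counts, 6.43% of all genes were higher and 8.04% lower than in G-NHA9 cells.

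A few genes that rose most against the empty vector were also far above G-NHA9. Csn2 was at 8.16 ± 6.81 CPM in G-NHA9 cells (3.57 ± 0.76, adjusted p = 0.0013), Chil4 at 3.39 ± 0.851 CPM (4.56 ± 0.41, adjusted p = 2.5e-09), Cxcl3 at 8.74 ± 4.7 CPM (3.67 ± 0.46, adjusted p = 8.2e-07) and Abcg3 at 2.41 ± 0.845 CPM (2.16 ± 0.30, adjusted p = 4.5e-06). By contrast, Myl10 (0.59 ± 0.26, adjusted p = 0.12), Pfn2 (0.26 ± 0.13, adjusted p = 0.19), Rhoj (-0.14 ± 0.27, adjusted p = 0.78) and Clec2i (-0.22 ± 0.21, adjusted p = 0.53) did not pass the threshold against G-NHA9. Genes of DNA replication were lower than in G-NHA9 cells in 13 of 40 cases and mitotic genes in 18 of 34, against 8.04% of all genes. Of 79 ribosomal protein genes, 11 were higher, against 6.43% of all genes, and none was lower.

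**Figure D5:**
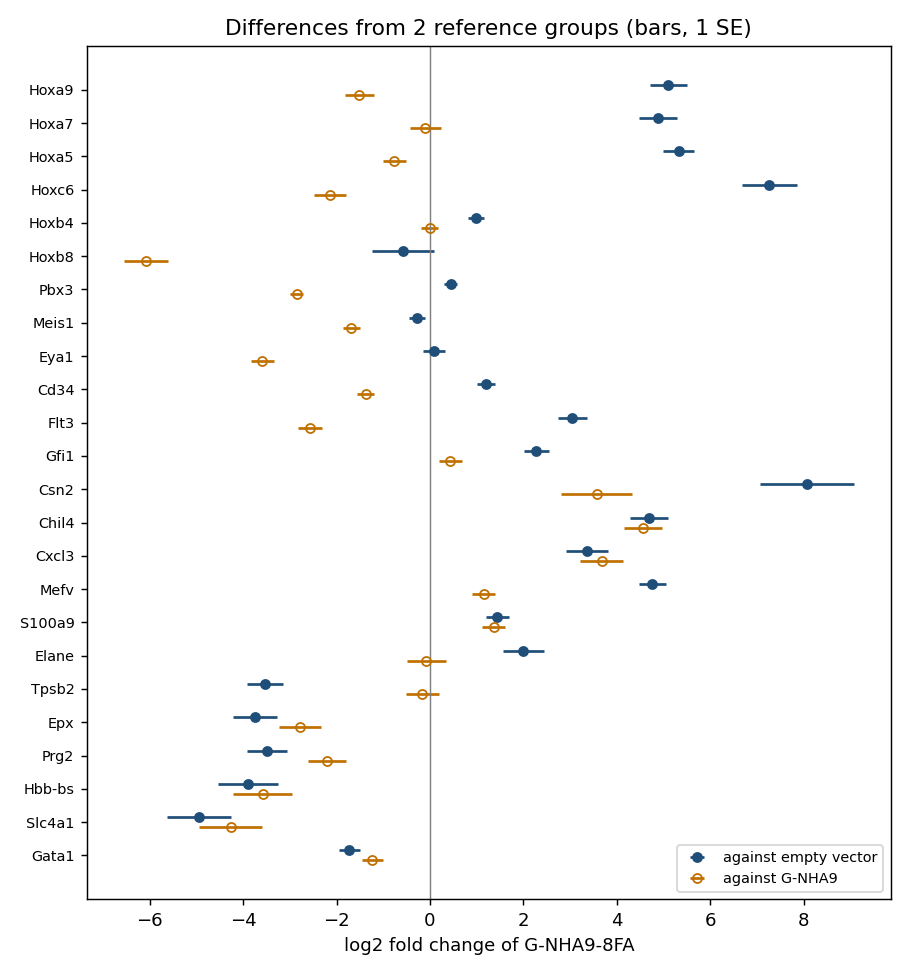
Log2 difference of G-NHA9-8FA cells from empty vector cells (filled) and from G-NHA9 cells (open) for 24 genes, with bars of 1 SE from edgeR's fit. Red cell and eosinophil genes are negative against both references, Csn2, Chil4, Cxcl3, Mefv and S100a9 are positive against both, and Hoxa9, Hoxc6, Cd34, Flt3 and Pbx3 are positive against the empty vector and negative against G-NHA9.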

How the data were processed

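RNA was extracted from the cultured cells with the Direct-zol kit, and libraries of total RNA were made with the TruSeq Stranded Total RNA kit and sequenced on a NovaSeq instrument. The submitters' processing notes name STAR 2.7.0d, HTSeq 0.11.2, DESeq2 and the mm10 build, and whether HTSeq counted by strand is not given in the sources used here. The authors deposited raw read counts for 49671 genes in 35 libraries, with no normalization. Columns were matched to samples by the names in the labels, all columns were used in the fit, and no column of the authors' own comparisons was used.

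Counts of all 7 conditions were fitted together with edgeR 4.0.16 (TMM, filterByExpr, quasi-likelihood test, Benjamini-Hochberg adjustment over all 17166 genes tested), with a mean for each condition and no covariate. CPM are counts scaled to a common library of 1000000 by TMM-adjusted library sizes, and their precision is limited by depth (31559914 to 58576267 counts in the libraries of the main comparison), where intervals cover counting error only. In simulated counts for G-NHA9-8FA against the empty vector over 16808 genes, 84% of 2-fold and 99% of 4-fold changes were recovered and 5 unchanged genes were called. The changes were set in 200 genes with a mean of over 20 counts, fewer genes than the 4564 called in the data. Recovery in genes with lower counts was not tested. To look for repeat deposits of 1 library, counts of library pairs within each of these groups were compared, and none of the 20 pairs agreed within counting noise (chi-square per degree of freedom, 27.98 to 179.9). This does not show that the libraries are independent replicates.

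The compared groups and the gene lists were chosen with earlier results of these data known, and no test was made over a list. Genes are named if they are on a list, if they are among the 15 that rose or the 15 that fell most by log2 fold change among called genes without overlap whose mean reached 5 CPM, or if they have one of the 10 largest gains or losses in mean CPM among called genes. Nup98 and Hoxa9 are given in any case. Some genes that meet the rule are not reported here. Positions come from GENCODE M21 (GRCm38), which held 99.5% of the gene identifiers without their version, and start-site windows from RefSeq (GRCm38.p6). Genes with near-identical copies (globins, Ear genes, tryptases, chymases, Ly6c, stefins, lysozymes, Chil3 and Chil4, and 7S RNA) are uncertain in how their reads were shared. Alternatives were other scaling (none, or RLE factors), other filters on low counts, the groups of a comparison alone, a replicate block, a covariate for sex built from Xist and Y-linked genes, DESeq2 1.42.0, a minimum log2 fold change of 1, leaving out each library, and, chosen after seeing the data, leaving out the empty vector libraries from older mice. Numbers were handled with R 4.3.3 and Python 3.11.15.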

Additional observations from a re-analysis of the deposited data

Results flagged for a closer look

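In 322 groups of 5 libraries (each gene and list sum described above, in each of the compared groups), 16 held a library whose gap to the nearest other library was over 0.71 of the range of the group. Chance alone gives about 1 in 20 such groups, and 16 of 322 is close to that. Empty vector library 2 accounted for 5 of them and empty vector library 5 for 4, followed by G-NHA9-8FA library 4 with 3. Whether these numbers differ from chance was not tested.

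Among genes of the construct and its relatives, Nup98 stood at 198 CPM in G-NHA9-8FA library 5, against 146 to 159 CPM in the other 4. Hoxa7 stood at 1.24 CPM in empty vector library 2, against 0.365 to 0.52 CPM. Hoxa4 stood at 0.551 CPM in empty vector library 5, against 0.312 to 0.367 CPM. Hoxc5 stood at 0.0689 CPM in empty vector library 2 and at 0 in the others, and Hoxc8 at 0.437 CPM in G-NHA9-8FA library 4, against at most 0.165 CPM.

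Among genes of blood lineages, empty vector library 2 was high for Ear1, at 81.4 CPM against at most 47.3 CPM, and low for Ly6c2, at 250.6 CPM, and for Stfa1, at 56.8 CPM against at least 119 CPM. Empty vector library 5 was low for Gfi1b, at 3.12 CPM against at least 6.65 CPM, and for Mecom, at 0.704 CPM, and high for Bcl2l1, at 139 CPM against at most 109 CPM. Rhag stood at 0.231 CPM in G-NHA9-8FA library 4, against at most 0.0466 CPM in the others.

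Among genes that rose most, Abcg3 stood at 19.5 CPM in G-NHA9-8FA library 5 and Il12a at 29.6 CPM in library 4, against at most 17.3 CPM. Rhoj was low in G-NHA9-8FA library 3, at 21.1 CPM against at least 25.1 CPM. Mefv stood at 1.53 CPM in empty vector library 4, still far under every G-NHA9-8FA library.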

How the results depend on the processing

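The direction of nearly every named difference held. Over 154 genes with values, 2968 values under the alternatives kept their direction and side of the threshold, 80 lost the threshold, 5 gained it and 4 changed sign. The minimum log2 fold change of 1 gave 112 of those that kept it and 42 of those that lost it. That setting reuses the values of the main fit, so it could not change a direction, and its losses follow from the size cut. The sign changes were Cish without the libraries from older mice (0.22), and Eya1 without G-NHA9-8FA library 1 or 3 or empty vector library 1 (-0.050 to -0.0036, within a range of -0.050 to 0.21 on leaving out each library), and neither gene had passed the threshold. Of the counts of list members under the alternatives, the size cut included, 766 stayed within 1.5 times the main count and 74 did not. The lowest total against the empty vector on leaving out 1 library was 3666, without empty vector library 5, and DESeq2 called 4815.

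With a minimum log2 fold change of 1, 1643 genes were called against the empty vector, 699 higher and 944 lower. Higher members were then 0 for ribosomal proteins, nucleolar assembly, translation factors and DNA replication, 6 for the amino acid list, 7 for stem and leukemia regulators and 8 for the genes marked by the study, and 5 integrin and adhesion genes were lower. Against G-NHA9 it left 863 genes, 266 higher and 597 lower. Under a mean of at least 1 CPM, 7 Hox genes were higher, since fewer were tested.

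Without the libraries from older mice, 1493 genes were higher, with 43 ribosomal protein, 3 translation factor, 7 nucleolar and 3 DNA replication genes, and Cdk4, Eef1a1, Fth1, Gata2, Hoxb2, Hoxb6, Oas2 and Rn7s2 lost the threshold. DNA replication had 5 higher genes with no filter and 3 in a fit of 2 groups only, and from 3 to 13 when single libraries were left out. Nucleolar assembly ranged from 9 to 18 on leaving out single libraries, lowest without empty vector library 5. Fits that leave out libraries or groups have fewer samples, and the cause of these changes was otherwise not tested.

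Against G-NHA9, 1559 genes were called with 2 groups only (524 higher), and 1542 to 2816 on leaving out single libraries (568 to 1376 higher), lowest without G-NHA9 library 5. Without TMM, 625 were higher and 2504 lower, and with the sex score 1727 were higher. Against the empty vector the sex score brought Nup98 past the threshold (0.33).

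The labels give both groups the replicate numbers 1 to 5, but only 4 of 5 pairs of same-numbered libraries deviated together (correlations of -0.151 to 0.352), so the numbers were not taken as a pairing. With the replicate block, 5922 genes were called against the empty vector and 3952 against G-NHA9 (1989 higher). Nup98 (0.30), Kit (-0.49) and Csf2rb (-0.28) then passed the threshold. Lower members rose to 9 of 20 myeloid and 11 of 19 erythroid and megakaryocyte factors, 7 stem and leukemia regulators and 11 oxidase and lysosome genes, and 9 inflammatory genes were higher. As a hint from the data, 4 of 5 G-NHA9-8FA libraries correlated best with their own number. Genes with counts near 0, such as Hoxb5 to Hoxb9, are limited by depth.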
